A study of Mus musculus with 2 samples.

Results

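The genes described here handle iron, heme and iron-sulfur clusters. They were chosen by name as 37 mouse genes of iron uptake, storage and export, heme synthesis and breakdown, and cluster assembly, and 36 of them matched a row of the deposited tables, out of 21878 genes listed. Flvcr1, a heme exporter, is not analysed here. The 2 libraries came from primary chondrocytes of C57BL/6 mice, the cells that make cartilage, grown in DMEM with 10% fetal bovine serum, penicillin and streptomycin. Both cultures were treated with lentivirus, the shGpx4 culture with a hairpin against Gpx4 and the shNC culture with a control hairpin, and the labels name no age, sex or number of animals. The labels call these genotypes GPX4 knockdown and control. GPX4 is the enzyme that detoxifies lipid peroxides in membranes and holds back ferroptosis, a death of cells that depends on iron, and the stated purpose was to learn how it acts. Each group is 1 library, so no difference was tested and no value carries a replicate error.

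Most cells take up iron as transferrin bound to its receptor, reduce it in endosomes, pass it to the cytosol, and store the surplus inside ferritin, a shell of heavy and light chains. Mitochondria use iron to make heme and iron-sulfur clusters, and heme oxygenase releases iron from heme again. When iron is scarce, the iron regulatory proteins bind short RNA hairpins called iron-responsive elements, which blocks translation of ferritin messages and stabilises the transferrin receptor message.

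The library totals behind the values were 21313211 reads for shGpx4 and 19729142 reads for shNC. Levels are FPKM, reads scaled by gene length and library total. A gene was called measured at a mean of at least 1 FPKM over both libraries, which held for 10997 genes and for 34 of the 36 members. The log2 ratio, shGpx4 over shNC, was taken after 1 was added to each FPKM, which shrinks the ratios of genes with a low FPKM. Each interval is an exact 95% Clopper-Pearson interval of the log2 FPKM ratio itself, from reads recovered from the values, and covers counting error only. Gpx4 was at 96.2 FPKM in shGpx4 and 160.7 FPKM in shNC, 59.9% of the control level. Of 14 chondrocyte markers 9 were measured, among them Comp, at 1421 FPKM in shGpx4 and 1666 FPKM in shNC, and Sox9, at 18.2 FPKM in shGpx4 and 21.8 FPKM in shNC. The chondrocyte markers summed to 2025 FPKM in shGpx4 and 2016 FPKM in shNC. Comp made up most of this sum, and the markers within it differed in opposite directions. Col2a1 was at 58.4 FPKM in shGpx4 and 8.96 FPKM in shNC, and Cnmd at 270 FPKM in shGpx4 and 123.6 FPKM in shNC. Prg4 was at 203.2 FPKM in shGpx4 and 135.4 FPKM in shNC. Sox5 and Hapln1 were also higher in shGpx4, while Sox6 and Col11a1 were lower, as were Comp and Sox9. Acan, Matn1, Matn3 and Col9a1 were at or near 0 in both libraries, so several defining cartilage messages were not detectable or barely so. Fibroblast markers summed to 9440 FPKM in shGpx4 and 7682 FPKM in shNC over 9 genes, all measured, with Dcn at 5042 FPKM in shGpx4 and 2808 FPKM in shNC and Postn at 327.2 FPKM in shGpx4 and 947.9 FPKM in shNC. Their part in any difference below was not tested, and in bulk RNA fewer cells of a type and less RNA per cell cannot be told apart. Of the erythroid markers 0 of 11 were measured and 9 were at 0 in both libraries, the globin genes and Gata1 among them. Of 8 osteoclast markers 3 were measured, and all 8 summed to 39.5 FPKM in shGpx4 and 52.0 FPKM in shNC. Ctsk was at 24.3 FPKM in shGpx4 and 38.1 FPKM in shNC, while Acp5 was at 5.70 FPKM in shGpx4 and 4.70 FPKM in shNC and Nfatc1 at 8.72 FPKM in shGpx4 and 8.18 FPKM in shNC.

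Most iron, heme and cluster genes lay close to equal between the libraries, and 5 stood outside 1.5-fold. Higher in shGpx4 were Steap1 and Steap2, of a family of hemoproteins that includes reductases of iron and copper, and Heph, the membrane ferroxidase hephaestin. Lower in shGpx4 were Trf, which encodes transferrin, and Ftl1, which encodes the ferritin light chain. The 3 higher genes are 8.82% of the 34 measured members, beside 2.99% of all measured genes past the same fold in that direction. The 2 lower genes are 5.88% of the members, beside 1.96% of all measured genes. The median log2 ratio of the members was -0.04, and that of all measured genes was also -0.04. Of the members 23 had a ratio within 0.2 of 0, or 67.6%, against 67.9% of all measured genes. The counting interval lay above 0 for 6 members, beside 18.1% of all genes, and below 0 for 9 members, beside 27.3%. Together 15 of 34 intervals excluded 0, or 44.1%, against 45.3% of all measured genes, a share near the background.

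**Figure D1:**
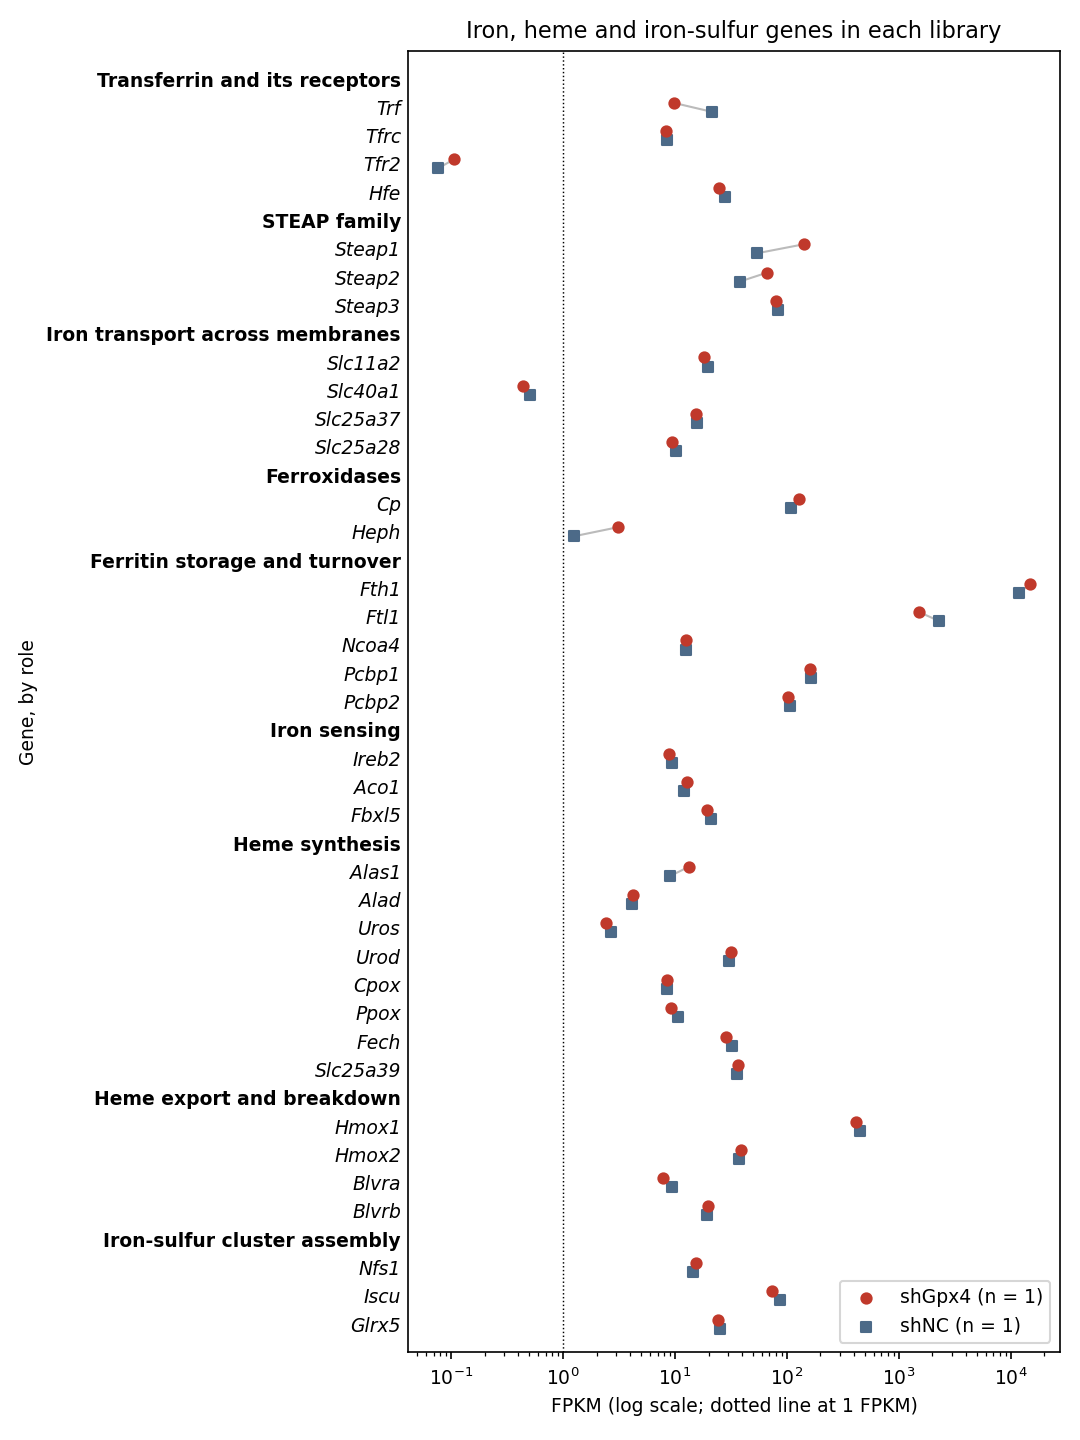
Level of each of the 36 matched genes in the shGpx4 library (circles) and the shNC library (squares), in FPKM on a log axis, grouped by role. Fth1 is the highest in both libraries at 14920.4 FPKM in shGpx4 and 11977 FPKM in shNC, and Tfr2 and Slc40a1 are the members left of the dotted line at 1 FPKM.

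Levels spanned several orders of magnitude, as the plot of all members by role shows. Fth1, the ferritin heavy chain gene, ranked 1 of all 21878 listed genes in both libraries. Ftl1 ranked 16 in shGpx4 and 12 in shNC, and Hmox1 ranked 105 in shGpx4 and 108 in shNC. The median member was at 19.6 FPKM in shGpx4 and 21.3 FPKM in shNC, above the median of all measured genes, which was 9.98 FPKM in shGpx4 and 10.2 FPKM in shNC.

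The hairpins that the iron regulatory proteins bind are shown for the ferritin genes and the transferrin receptor gene, the textbook targets of these proteins. In ferritin messages the proteins block translation, which levels of RNA do not show. The hairpins were found in GENCODE transcripts on GRCm38 as C, any 5 bases, CAGTG and any base on the sense strand. The 5 bases before the loop had to pair with the 5 after it (G with T allowed). In each line the capitals mark the unpaired C of the stem and the loop of 6 bases.
Fth1, 5′ UTR, chr19:9982732-9982761, plus strand: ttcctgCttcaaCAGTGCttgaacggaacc
Ftl1, 5′ UTR, chr7:45459778-45459807, minus strand: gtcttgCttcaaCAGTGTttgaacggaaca
Tfrc, 3′ UTR, chr16:32631219-32631248, plus strand: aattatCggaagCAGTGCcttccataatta
Tfrc, 3′ UTR, chr16:32631598-32631627, plus strand: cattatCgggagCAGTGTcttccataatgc
Tfrc, 3′ UTR, chr16:32631663-32631692, plus strand: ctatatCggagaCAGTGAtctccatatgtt
Tfrc, 3′ UTR, chr16:32631710-32631739, plus strand: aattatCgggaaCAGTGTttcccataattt
The elements of the ferritin genes are alike at 26 of 30 bases and lie before the coding sequence, while the 4 of Tfrc lie after it. Over the longest transcript of each of 21877 protein-coding genes, 271 held at least 1 such match, or 1.24%, and Tfrc was the only gene with 3 or more. A match is a description of letters, not evidence of binding.

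The ferritin subunit messages differed in opposite directions. Fth1, the heavy chain with ferroxidase activity, was at 14920.4 FPKM in shGpx4 and 11977 FPKM in shNC, a log2 ratio of 0.32 (interval 0.309 to 0.325). Ftl1, the light chain that aids mineral formation, was at 1529 FPKM in shGpx4 and 2312 FPKM in shNC, a log2 ratio of -0.60 (interval -0.63 to -0.57). The heavy chain message thus exceeded the light chain message by 9.76-fold in shGpx4 and by 5.18-fold in shNC. Per length, both messages together made up 4.35% of all FPKM in shGpx4 and 3.78% in shNC. Ftl1 lay just past the 1.5-fold limit, and 3 ways of rescaling the libraries put it just inside. RefSeq names 2 pseudogenes after Fth1 and 3 after the light chain genes, 0 of which are listed in the tables, so reads could be shared with near-identical copies and both values are uncertain to that extent. Fth1 lies on chromosome 19 from 9980600 to 9985111 and Ftl1 on chromosome 7 from 45457944 to 45459886, by RefSeq coordinates on GRCm38.p6.

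The messages of proteins that fill and empty ferritin differed by less than their counting error. Ncoa4, the receptor that delivers ferritin to autophagy, was at 12.6 FPKM in shGpx4 and 12.5 FPKM in shNC (log2 ratio 0.01). Pcbp1, an RNA-binding protein that also carries iron to ferritin, was at 162.1 FPKM in shGpx4 and 166.0 FPKM in shNC (-0.03). Its relative Pcbp2, which takes iron from importers, was at 103.1 FPKM in shGpx4 and 106.3 FPKM in shNC (-0.04). All 3 counting intervals held 0, and the widest, that of Ncoa4, ran from -0.11 to 0.13.

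**Figure D2:**
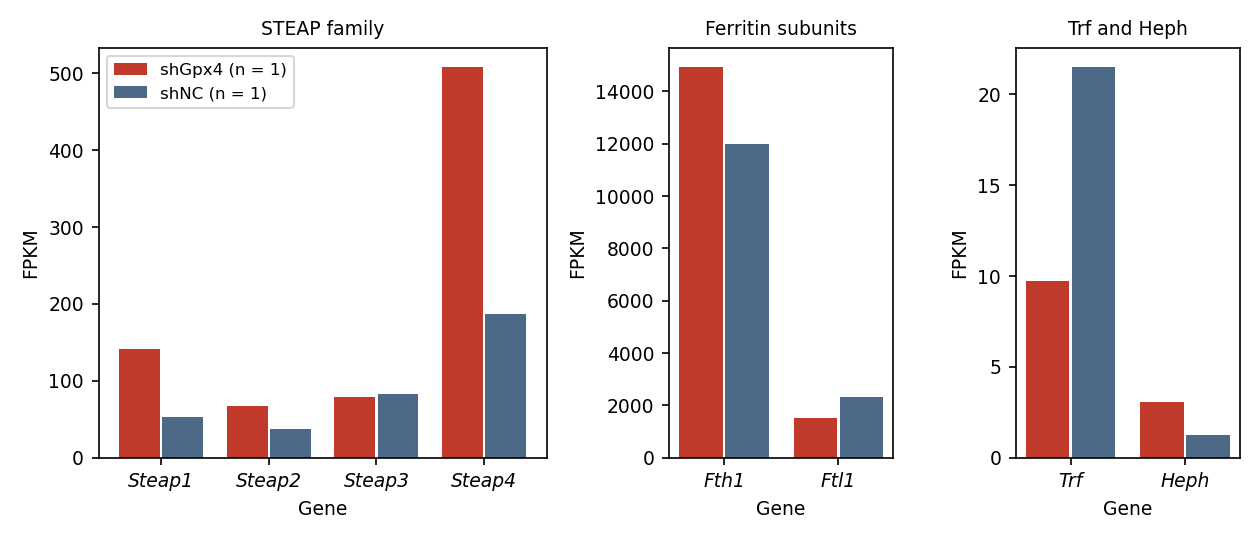
FPKM of the STEAP family (Steap4 is no member of the list), the ferritin subunits, and Trf with Heph, in the shGpx4 library (left bar of each pair) and the shNC library (right bar); each bar is 1 library and each panel has its own scale from 0. Steap1, Steap2 and Steap4 are higher in shGpx4 and Steap3 is nearly level, while Fth1 and Ftl1 differ in opposite directions.

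The messages of transferrin and its receptors were split between a lower ligand and a level receptor. Trf was at 9.74 FPKM in shGpx4 and 21.5 FPKM in shNC, a log2 ratio of -1.07 (interval -1.30 to -0.98). This rests on at least 484 reads in shGpx4 and 989 reads in shNC. Of all measured genes 0.427% had a lower ratio. Hepatocytes are the main source of plasma transferrin, and of 6 hepatocyte markers 0 were measured, with a summed level of 0.299 FPKM in shGpx4 and 0.521 FPKM in shNC. Tfrc, the receptor that brings transferrin into the cell, was at 8.31 FPKM in shGpx4 and 8.59 FPKM in shNC (log2 ratio -0.04, interval -0.18 to 0.09). Hfe, which binds the receptor and tunes iron sensing, was at 24.7 FPKM in shGpx4 and 28.04 FPKM in shNC (-0.18, interval -0.28 to -0.08). Tfr2, the receptor known mainly from liver and erythroid cells, was under the limit of 1 FPKM at 0.106 FPKM in shGpx4 and 0.0764 FPKM in shNC. With at least 9 reads in shGpx4 and 6 reads in shNC, its interval of -1.18 to 2.25 is too wide to show a difference at this depth.

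Among the STEAP messages, Steap1 and Steap2 were higher in shGpx4 and Steap3 was nearly level. Steap1, whose protein binds heme but lacks the NADPH-binding part of its relatives, was at 141.4 FPKM in shGpx4 and 53.7 FPKM in shNC. Its log2 ratio was 1.38 (interval 1.31 to 1.49), and 99.7% of measured genes had a lower ratio. Steap2, a reductase of iron and copper, was at 66.7 FPKM in shGpx4 and 37.8 FPKM in shNC, a log2 ratio of 0.80 (interval 0.78 to 0.86). Steap3, the reductase of transferrin endosomes in erythroid precursors of the mouse, was at 79.6 FPKM in shGpx4 and 83.2 FPKM in shNC (-0.06, interval -0.12 to -0.01). With Steap3 the most abundant of these 3 in shNC and Steap1 in shGpx4, their order by level differed between the libraries.

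Steap1 and Steap2 are neighbours on chromosome 5, and the fourth family member, Steap4, lies on the same chromosome. Steap2 spans 5664829 to 5694649 and Steap1 5736322 to 5749317, separated by 41672 bases, and Steap4 starts 2211154 bases beyond the end of Steap1. Steap4, a reductase known from fat and inflamed tissue, was at 507.6 FPKM in shGpx4 and 187.2 FPKM in shNC (log2 ratio 1.43, interval 1.37 to 1.51). Steap3, on chromosome 1, is the family member outside this region. Cfap69, which lies 596 bases past the end of Steap2 on the same strand, was at 6.09 FPKM in shGpx4 and 2.41 FPKM in shNC (1.05, interval 1.17 to 1.497). The log2 ratio was -0.03 for Gtpbp10 and 0.17 for Cldn12, the next genes beyond Cfap69, and -0.21 for Sri, which lies beyond Steap4. The predicted gene Gm46900 overlaps Steap1 over 6244 bases, but at 0.541 FPKM in shGpx4 and 0.104 FPKM in shNC it was far below Steap1.

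The promoters of Steap1 and Steap2 are shown because both neighbours were higher in shGpx4. Each is the 250 bases before the most upstream start that the RefSeq promoter table lists on GRCm38.p6, 5′ to 3′, and capitals mark any match to 6 short motifs.
Steap1, chr5:5749318-5749567, minus strand: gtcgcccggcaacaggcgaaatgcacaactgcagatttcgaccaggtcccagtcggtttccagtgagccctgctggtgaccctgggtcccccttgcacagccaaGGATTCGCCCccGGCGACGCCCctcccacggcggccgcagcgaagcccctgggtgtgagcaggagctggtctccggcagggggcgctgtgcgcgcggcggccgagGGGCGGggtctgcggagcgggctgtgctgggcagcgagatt
Steap2, chr5:5694569-5694818, minus strand: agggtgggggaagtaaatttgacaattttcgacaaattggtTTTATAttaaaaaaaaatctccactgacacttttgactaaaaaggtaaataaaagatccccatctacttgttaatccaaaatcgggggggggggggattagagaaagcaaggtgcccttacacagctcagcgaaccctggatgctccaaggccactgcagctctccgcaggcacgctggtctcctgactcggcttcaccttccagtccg
The motifs, read on both strands, were AP-1 (TGANTCA), NF-kB (GGG, any 5 bases, CC), hypoxia response (ACGTG), STAT (TTCNNNGAA), the GC box (GGGCGG) and the TATA box (TATAAA). The marked matches do not overlap each other. The start listed for Steap2 lies inside the span given above, so 81 bases of its window fall within the annotated gene. The Steap1 window lies outside Steap1 but inside the span of the predicted gene Gm46900, 5743074 to 5750190. The Steap1 window held 2 matches to the NF-kB letters, which 45.8% of 32851 windows of this length hold, and 1 GC box, which 32.7% hold. The Steap2 window held 1 match to the TATA letters, which 12.4% hold. The windows differ in base composition, with 70.8% G and C in Steap1 and 47.2% in Steap2, and they shared no motif of the 6. The Steap4 window held 3 matches to the NF-kB letters, 1 to the STAT letters, which 7.02% of windows hold, and 1 to the TATA letters, while the Steap3 window held 0 of the 6. No match says only that these letters are not in this window. In all, 28 of the 37 listed genes have a promoter in the RefSeq table.

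Messages of both ferroxidases, enzymes that oxidise iron so that transferrin can bind it, were higher in shGpx4, Heph more than Cp. Heph was at 3.08 FPKM in shGpx4 and 1.25 FPKM in shNC, a log2 ratio of 0.86. Without the added 1 the ratio was 1.31 (interval 0.91 to 1.71), from at least 195 reads in shGpx4 and 73 reads in shNC. Cp, the secreted ferroxidase ceruloplasmin, was at 129.6 FPKM in shGpx4 and 109.2 FPKM in shNC (0.24, interval 0.22 to 0.28), so its difference exceeded counting error at less than 1.5-fold. Cp shares 13806 bases of its span with Hps3, at 4.22 FPKM in shGpx4 and 3.70 FPKM in shNC.

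The messages of iron transporters were close to level. Slc11a2, which moves ferrous iron out of endosomes, was at 18.1 FPKM in shGpx4 and 19.7 FPKM in shNC (log2 ratio -0.12, interval -0.20 to -0.04). The mitochondrial importers were level within counting error, Slc25a37 at 15.3 FPKM in shGpx4 and 15.7 FPKM in shNC (-0.03) and Slc25a28 at 9.39 FPKM in shGpx4 and 10.3 FPKM in shNC (-0.12). Slc40a1, which encodes ferroportin, the sole known iron exporter of mammals, was under the limit at 0.443 FPKM in shGpx4 and 0.508 FPKM in shNC. Its interval of -0.93 to 0.53 held 0. Macrophages are rich in ferroportin, and of 12 macrophage markers 3 were measured, with Ptprc at 0 in both libraries and a summed level of 23.2 FPKM in shGpx4 and 21.7 FPKM in shNC. Within that sum the markers differed in opposite directions. Lyz2 was at 1.86 FPKM in shGpx4 and 7.67 FPKM in shNC (-1.60), and Cd14 at 17.1 FPKM in shGpx4 and 9.19 FPKM in shNC (0.83). Adgre1 had at least 1 read in shGpx4 and 12 reads in shNC. The part of such cells in any result here was not tested.

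**Figure D3:**
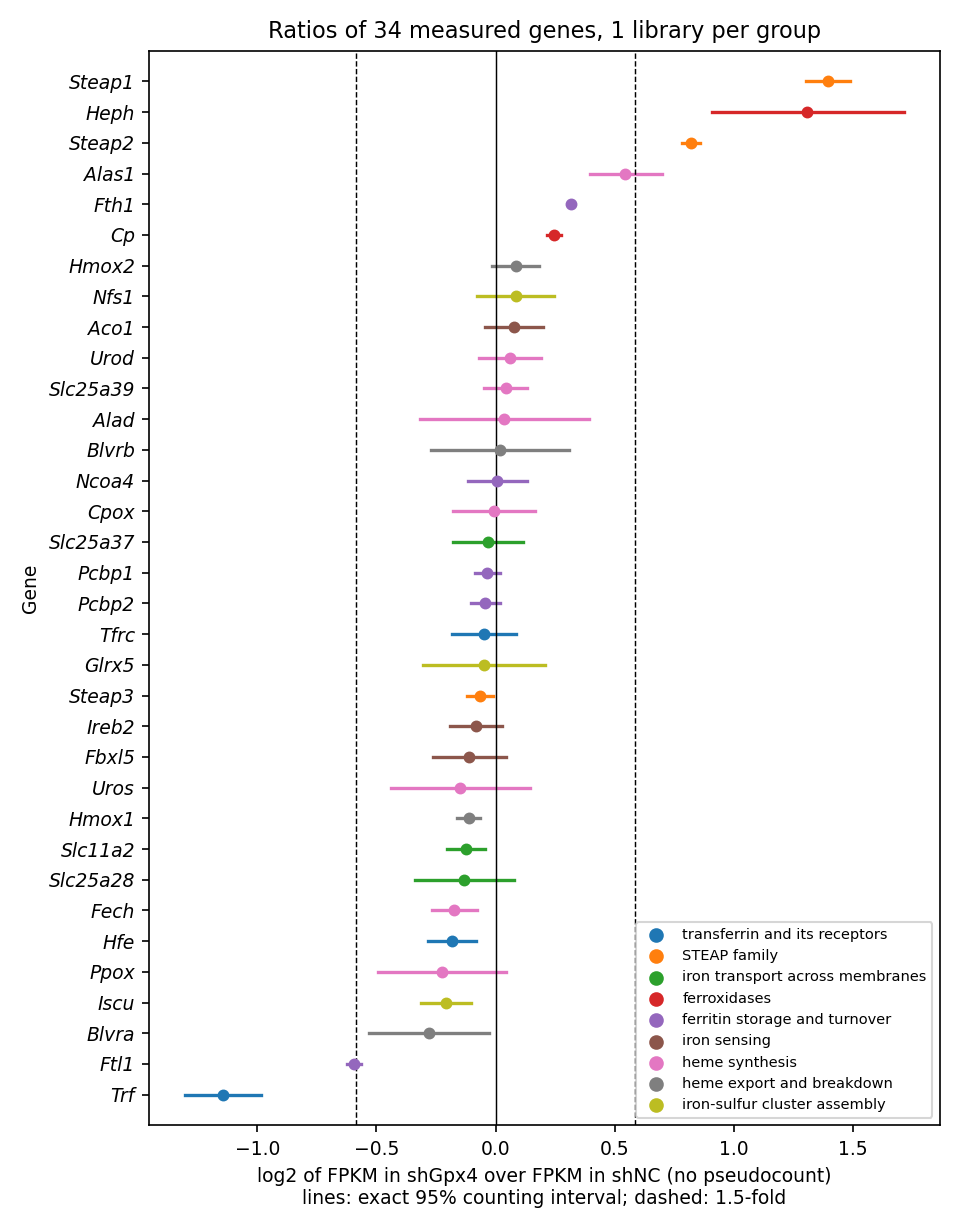
log2 of the FPKM ratio, shGpx4 over shNC, without a pseudocount, for the 34 measured genes in order, coloured by role; lines are exact 95% intervals for counting error only and dashed lines mark 1.5-fold. Steap1, Heph and Steap2 lie right of the upper dashed line, Trf lies left of the lower one, Ftl1 lies just left of it, and 19 intervals cross 0.

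The 3 genes of iron sensing were level within counting error. Aco1 encodes an iron regulatory protein that becomes cytosolic aconitase when it holds an iron-sulfur cluster, and was at 12.7 FPKM in shGpx4 and 12.1 FPKM in shNC (log2 ratio 0.07). Ireb2 encodes the iron regulatory protein that is degraded when iron is plentiful, and was at 8.92 FPKM in shGpx4 and 9.44 FPKM in shNC (-0.07). Fbxl5, the iron-binding F-box protein that targets it, was at 19.5 FPKM in shGpx4 and 21.0 FPKM in shNC (-0.10). Fbxl5 had the widest of the 3 intervals, -0.26 to 0.04.

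Of the 8 heme synthesis members 0 passed 1.5-fold in either direction, and the counting interval excluded 0 for the first step and the last. Alas1, the rate-limiting enzyme outside erythroid cells, was at 13.3 FPKM in shGpx4 and 9.11 FPKM in shNC, a log2 ratio of 0.50 (interval 0.39 to 0.70). This is below 1.5-fold on the scale used, and 96.3% of measured genes had a lower ratio. The erythroid form Alas2 was at 0 in both libraries. Fech, which inserts iron into the ring as the last step, was at 28.9 FPKM in shGpx4 and 32.6 FPKM in shNC (-0.17, interval -0.27 to -0.08).

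The steps between them stayed within counting error. Alad, which joins the first precursors, was at 4.25 FPKM in shGpx4 and 4.15 FPKM in shNC (log2 ratio 0.03). Uros, which closes the ring, was at 2.41 FPKM in shGpx4 and 2.67 FPKM in shNC (-0.11), and it overlaps Bccip over 1135 bases. Urod was at 31.7 FPKM in shGpx4 and 30.4 FPKM in shNC (0.06). These enzymes act in the cytosol, and the next ones act in mitochondria. Cpox was at 8.48 FPKM in shGpx4 and 8.51 FPKM in shNC (-0.00), and Ppox at 9.20 FPKM in shGpx4 and 10.7 FPKM in shNC (-0.20, interval -0.49 to 0.05). Slc25a39, a mitochondrial carrier linked to heme synthesis and glutathione import, was at 36.9 FPKM in shGpx4 and 35.8 FPKM in shNC (0.04).

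The genes of heme breakdown differed little, and Hmox1 was among the most abundant members. Hmox1, the inducible heme oxygenase, was at 412.9 FPKM in shGpx4 and 446.4 FPKM in shNC (log2 ratio -0.11, interval -0.16 to -0.06), so it was slightly lower beyond counting error. Its constitutive relative Hmox2 was at 39.3 FPKM in shGpx4 and 37.1 FPKM in shNC (0.08, interval -0.02 to 0.18). Blvra, which turns biliverdin into bilirubin, was at 7.78 FPKM in shGpx4 and 9.44 FPKM in shNC (-0.25, interval -0.53 to -0.03). The related reductase Blvrb was at 19.7 FPKM in shGpx4 and 19.5 FPKM in shNC (0.02).

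Among the 3 cluster assembly members, Iscu was the one whose interval excluded 0. Iscu, on which clusters are built, was at 74.5 FPKM in shGpx4 and 86.1 FPKM in shNC (log2 ratio -0.21, interval -0.31 to -0.10). Nfs1, the desulfurase that supplies sulfur, was at 15.5 FPKM in shGpx4 and 14.6 FPKM in shNC (0.08). Glrx5, which passes the finished cluster on, was at 24.3 FPKM in shGpx4 and 25.2 FPKM in shNC (-0.05). The last 2 intervals held 0.

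**Figure D4:**
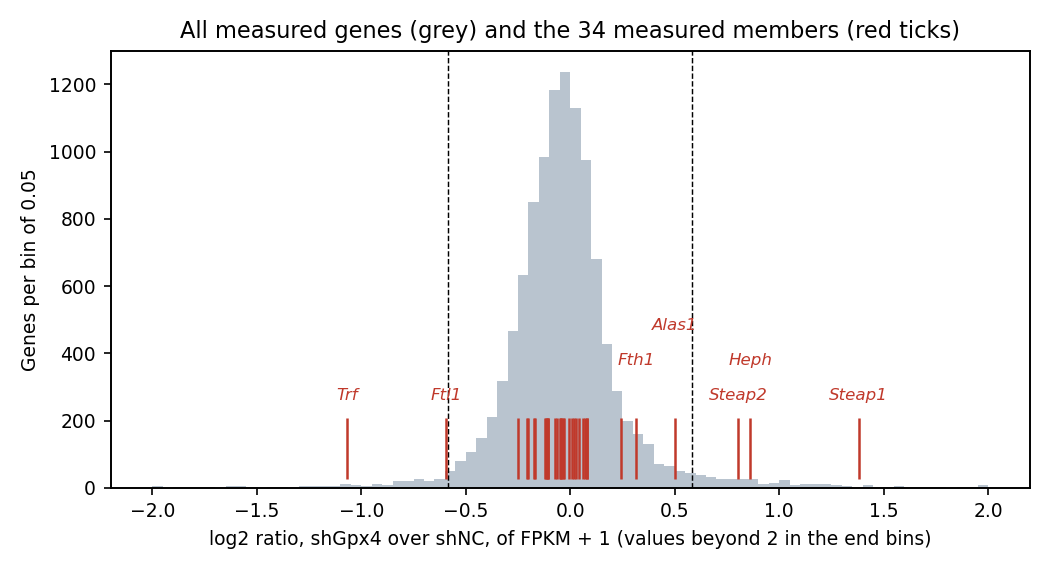
Histogram of the log2 ratio of FPKM + 1, shGpx4 over shNC, over the 10997 measured genes (grey, genes per bin), with the 34 measured members as red ticks and dashed lines at 1.5-fold. Most ticks lie in the bulk of all genes near the shared median of -0.04, and Steap1, Heph, Steap2, Trf and Ftl1 lie outside the dashed lines.

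Beyond the members, 85 further genes of the same pathways were listed and 84 matched, of which 72 were measured. Of these 2 were at least 1.5-fold higher in shGpx4, or 2.78%, a share near the 2.99% of all measured genes. At least 1.5-fold lower were 0, beside 1.96% of all measured genes, and the median log2 ratio was -0.03. The higher genes were Steap4, given above, and Slc39a14, a zinc transporter that also takes up iron not bound to transferrin, at 33.0 FPKM in shGpx4 and 18.8 FPKM in shNC (0.78, interval 0.75 to 0.87). Both belong to the 13 measured genes of iron and heme uptake at the cell surface or from plasma. The measured genes of ferritin loading, 5 in number, and of heme trafficking, 16 in number, held 0 past 1.5-fold in either direction. Of the 27 further genes of cluster assembly, all measured, 0 passed 1.5-fold in either direction, and their ratios ran from -0.49 to 0.22. The interval excluded 0 for 9 of these 27, or 33.3%, against 45.3% of all measured genes. It lay below 0 for 8, beside 27.3% of all measured genes, and above 0 for 1, beside 18.1%. Hscb, a co-chaperone that acts on the scaffold, was at 7.96 FPKM in shGpx4 and 11.6 FPKM in shNC (-0.49, interval -0.87 to -0.22), and its partner chaperone Hspa9 was at 102.1 FPKM in shGpx4 and 110.6 FPKM in shNC (-0.11, interval -0.16 to -0.07). Both were named after their values were seen. The 5 other messages with a known iron-responsive element ran from -0.19 to 0.27.

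In 7 of the 36 matched members the span overlaps another listed gene, and the setting for strand when reads were counted is not given in the sources used here. These were Steap1, Cp, Heph, Pcbp2, Uros, Hmox2 and Nfs1. The partner was below the member in level except for Uros with Bccip and Nfs1 with Romo1. Reads in the shared stretches could therefore have been counted to either gene.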

How the data were processed

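Total RNA went into a stranded mRNA library kit per the labels' protocols. The authors deposited 1 table of FPKM per library, a unit read from the values and from the submitters' processing notes, which name Trimmomatic, HISAT2, Cufflinks and the build GRCm38 without versions or settings. Library totals and the smallest whole reads per gene were recovered from the FPKM values, which are whole reads over a whole length, within a relative error of 1.512e-13. True reads are these or a multiple, so no interval is too narrow for its reads, and reads of an amplified library are not independent molecules. With 1 library per group there was no test and no p-value, and a gene counted as higher or lower past 1.5-fold. All 37 members are named or accounted for, and of the other pathway genes those past 1.5-fold. Members, lists and motifs were chosen with earlier results of these data known. The alternatives tried were centring on the median, a pseudocount of 0.1, scaling by the 75th percentile, by a trimmed mean of ratios or to a common sum, a mean of at least 5 FPKM, no filter, and recovered reads with 0.5 added. The computation was tested on simulated data. Tables were handled in pandas 2.3.3, intervals in scipy 1.17.1 and numpy 2.4.6 and plots in matplotlib 3.10.9, under Python 3.11.15. Gene spans and promoters come from RefSeq on GRCm38.p6 and transcripts from GENCODE on GRCm38. The labels name no separate animals or cultures within a group.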

Additional observations from a re-analysis of the deposited data

How the results depend on the processing

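No paired analysis was possible because each group holds 1 library. The number of members at least 1.5-fold lower in shGpx4 was 2, and it was 1 after centring on the median, 75th percentile scaling and trimmed mean scaling. In each of these Ftl1 left the count, with log2 ratios of -0.56, -0.57 and -0.55, since a shift of the whole library moved it across the limit. The number of other pathway genes at least 1.5-fold lower was 0, and it was 1 with a pseudocount of 0.1 and with recovered reads, where Hebp1, chosen after its values were seen, passed the limit. With a mean of at least 5 FPKM the number of members at least 1.5-fold higher was 2 in place of 3, since Heph lies under that limit. No called member changed sign under the alternatives that gave it a value, which were all 8 except for Heph. Among the 34 measured members the sign changed for 3 after centring, 1 after 75th percentile scaling and 4 after trimmed mean scaling, all genes with a ratio nearer 0 than 0.05. Of 269 values of single members under alternatives, 259 moved by less than 1 side of the counting interval of the gene. The 269 include 31 values with a mean of at least 5 FPKM and 34 with no filter. Those values could not move, since a filter leaves each ratio as it was. The 10 that moved further belonged to Fth1, Ftl1, Steap2, Cp and Heph. Depth limits the members under 1 FPKM, and without replicates the spread between cultures is unknown.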

Other observations

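Of 13 genes of the systemic iron hormone pathway 6 were measured, among them the BMP receptor gene Bmpr1a, at 59.5 FPKM in shGpx4 and 69.1 FPKM in shNC, and the coreceptor gene Neo1, at 22.3 FPKM in shGpx4 and 20.1 FPKM in shNC. Hamp and Hamp2, which encode hepcidin, were at 0 in both libraries. Tmprss6, the protease that restrains hepcidin, was under the limit of 1 FPKM at 0.740 FPKM in shGpx4 and 0.0542 FPKM in shNC, from at least 59 reads in shGpx4 and 4 reads in shNC. Its log2 ratio was 0.72 on the scale used, and 3.77 without the added 1, with a counting interval of 2.34 to 5.69. Erfe, the erythroid regulator of hepcidin, was at 0.324 FPKM in shGpx4 and 0.0539 FPKM in shNC, from at least 26 reads in shGpx4 and 4 reads in shNC. The log2 ratio of Erfe was 0.33 on the scale used, and 2.59 without the added 1, with an interval of 1.06 to 4.57. The genes of this paragraph were picked with their values in view.

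Several carriers of iron or heme that lie outside the transferrin cycle were abundant. Lcn2, which binds iron-carrying siderophores, was at 3268 FPKM in shGpx4 and 2564 FPKM in shNC (log2 ratio 0.35, interval 0.33 to 0.37). Scara5, a receptor for ferritin light chain, was at 64.6 FPKM in shGpx4 and 44.2 FPKM in shNC (0.54, interval 0.50 to 0.60). Lrp1, which takes up heme bound to hemopexin, was at 252.5 FPKM in shGpx4 and 189.1 FPKM in shNC (0.41, interval 0.39 to 0.45). Of the 13 measured uptake genes 9 had a ratio above 0 and 4 below 0. Prnp was lower, at 191.7 FPKM in shGpx4 and 257.8 FPKM in shNC (-0.43, interval -0.46 to -0.40). Slc22a17 was also lower (-0.35, interval -0.56 to -0.21), and Slc48a1 was level at 102.4 FPKM in shGpx4 and 99.1 FPKM in shNC (0.05). Also on the lower side, the heme-binding protein gene Hebp1 was at 8.59 FPKM in shGpx4 and 13.1 FPKM in shNC (-0.56, interval -0.85 to -0.38). Bach1, the heme-sensing repressor of Hmox1, was at 5.67 FPKM in shGpx4 and 7.36 FPKM in shNC (-0.32, interval -0.51 to -0.24). All genes named in this paragraph lay inside 1.5-fold on the scale used and were named after their values were seen.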
